A study of Mus musculus with 3 samples.

Results

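The 6 genes described here encode the retinoic acid receptors (*Rara*, *Rarb*, *Rarg*) and the retinoid X receptors (*Rxra*, *Rxrb*, *Rxrg*) of the mouse. They were chosen by gene symbol, and each was present once among the 31053 features of the count tables. The tables came from single-cell RNA-seq of Matrigel implants placed under the abdominal skin of female CD-1 mice, 6 to 8 weeks of age, and recovered 5 days later. Matrigel-only implants held no rhBMP2 and the mice were given nothing by mouth. Vehicle and Palo implants held rhBMP2, a growth factor that induces cartilage and bone at ectopic sites, so that both shared the implant and differed in the oral dosing. Vehicle mice received corn oil/DMSO and Palo mice received palovarotene at 4 mg/kg, a synthetic retinoid that acts mainly on the receptor encoded by *Rarg*. There was 1 library per group, with no cell sort named in the labels, which also do not give the number of implants in a library. No difference between conditions could therefore be tested against biological replicates. The intervals given below are 95% intervals of the counts and cover counting error only.

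Retinoic acid receptors (RARs) and retinoid X receptors (RXRs) are ligand-activated transcription factors of the nuclear receptor family. An RAR binds DNA together with an RXR, at response elements built from repeats of a short hexamer. Without ligand the pair holds corepressors at its target genes, and with all-trans retinoic acid or a synthetic agonist it exchanges them for coactivators. RXRs also pair with other nuclear receptors, such as those for vitamin D, thyroid hormone and oxysterols. In the forming skeleton, retinoid signaling is low where cartilage differentiates, and RAR agonists hold back chondrogenesis. *Rarb* is itself a classical target gene of retinoic acid, through a response element in its promoter.

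That element and the corresponding stretch of *Cyp26a1*, which encodes a retinoic acid-degrading enzyme and is another classical target, are shown because they connect a receptor gene to the signal it senses. The promoter table of RefSeq for GRCm38.p6 was searched on both strands for direct repeats of 2 hexamers, each being AGGTCA or the variant AGTTCA, the variant GGTTCA or the variant GGGTCA, with 5 bases between them. Capitals mark the matched repeat, including the spacer. The *Rarb* stretch is read on the minus strand, chr14:16575483-16575559, and its repeat began 53 bases before the transcript start of its RefSeq entry. That start lies inside the span of the *Rarb* gene given below, not at its 5′ end. The *Cyp26a1* stretch is on the plus strand, chr19:37697746-37697822, and holds the repeat on the opposite strand.
Rarb: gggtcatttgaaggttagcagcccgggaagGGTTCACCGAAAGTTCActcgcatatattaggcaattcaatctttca
Cyp26a1: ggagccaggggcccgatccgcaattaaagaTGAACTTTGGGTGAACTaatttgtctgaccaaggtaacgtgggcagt

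All 6 receptor genes had entries in the promoter table, with 13 windows between them. Of these 13 windows, 1 held the repeat spaced by 5 bases, that of *Rarb*, and none held the same hexamers spaced by 1 or 2 bases. Among all 32851 windows of the table, 32 held the repeat spaced by 5 bases (0.0974%), 73 held one spaced by 1 base (0.222%) and 88 one spaced by 2 bases (0.268%). A match describes the letters of the window and is no measurement of binding.

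In the GENCODE vM21 annotation of mm10, *Rara* (ENSMUSG00000037992) lies at chr11:98927818-98974942 and *Rarg* (ENSMUSG00000001288) at chr15:102234938-102257517. *Rarb* (ENSMUSG00000017491) spans chr14:16430839-16819156, *Rxra* (ENSMUSG00000015846) chr2:27676440-27762957, *Rxrb* (ENSMUSG00000039656) chr17:34031812-34038399 and *Rxrg* (ENSMUSG00000015843) chr1:167598384-167639623. *Rarb* and *Rarg* are on the minus strand and the others on the plus strand. The 3′ end of *Rarb* overlaps that of *Top2b*, on the opposite strand, by 4624 bases. Whether reads were counted by strand was not given in the sources used here, so *Rarb* counts carry this uncertainty. *Top2b*, which encodes a DNA topoisomerase, was at 93.0 CPM (unique molecular identifiers, UMIs, of a gene relative to all UMIs of the cells summed) in stromal cells of Matrigel-only, 88.8 in Vehicle and 95.1 in Palo. These totals do not measure reads within the overlap, and its part in the *Rarb* counts was not tested.

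After filtering, 8728 cells of Matrigel-only, 5478 of Vehicle and 7297 of Palo remained, from libraries of 44252421 to 46901673 UMIs, each standing for 1 captured molecule. Stromal cells were those with at least 1% of their UMIs from *Col1a1*, *Col1a2*, *Col3a1*, *Dcn* and *Lum*, and numbered 2085, 1373 and 1184 in Matrigel-only, Vehicle and Palo. Of the rest, macrophages had a UMI of *Csf1r* or *C1qa* and numbered 5812, 3253 and 5661, and other leukocytes had one of *Ptprc* but of neither and numbered 557, 583 and 329. Between 123 and 274 cells per library met no rule. All 12 stromal markers were highest in the stromal class and all 12 macrophage markers in the macrophage class, in each library. These lists include the genes that define the classes, for which the order follows from the rule. The other listed markers had the same order. The other leukocytes were a mixture that differed between libraries, since their summed T and NK cell markers were at 3814 CPM in Vehicle against 515 in Matrigel-only and 586 in Palo. Their granulocyte markers were at 1863 CPM in Vehicle against 45.2 and 233. Stromal cells of Vehicle were the deepest, with a median of 17114 UMIs per cell against 9082 in Matrigel-only and 12955 in Palo, and they alone held much chondrocyte RNA (4542 CPM of 6 markers against 73.9 and 122). Pairs of libraries shared 11 to 21 cell barcodes.

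*Rarg*, the gene of the drug's main target, was expressed in the stromal cells of all 3 libraries and was highest in Vehicle. Its level was 35.0 CPM (32.4 to 37.7) in Matrigel-only, 49.9 CPM (47.1 to 52.9) in Vehicle and 33.4 CPM (30.6 to 36.4) in Palo, from 701, 1178 and 529 UMIs. The Vehicle interval overlapped neither of the others, and those of Matrigel-only and Palo overlapped. Vehicle was 1.43-fold above Matrigel-only (1.30 to 1.57, log2 difference 0.51) and Palo was 1.49-fold below Vehicle (1.35 to 1.66, log2 difference -0.58). Palo and Matrigel-only differed by -0.066 log2 units (-0.23 to 0.10). A difference of this size was common in these libraries. Of the 10755 genes tested between Vehicle and Matrigel-only, 33.7% had a larger one, as did 24.0% of the 10579 tested between Palo and Vehicle. With a stromal limit of 5% of UMIs, the log2 differences were 0.29 and -0.41. That limit removes all cells between 1% and 5%, not only those near the 1% limit. The defining genes other than *Lum* were lowest in Vehicle stroma, with *Col3a1* at 25917, 11387 and 24671 CPM in Matrigel-only, Vehicle and Palo. The limit may therefore remove different cells in each library.

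Because depth differed, the share of stromal cells with a *Rarg* UMI was also computed after thinning each cell to 3000 UMIs. It was 10.2% (8.87 to 11.7) in Matrigel-only, 13.7% (11.9 to 15.7) in Vehicle and 9.80% (8.13 to 11.7) in Palo, leaving out 202, 69 and 53 shallower cells. Thus the order of the libraries was that of the levels. Without thinning, the shares were 26.2%, 51.2% and 33.2%.

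**Figure D1:**
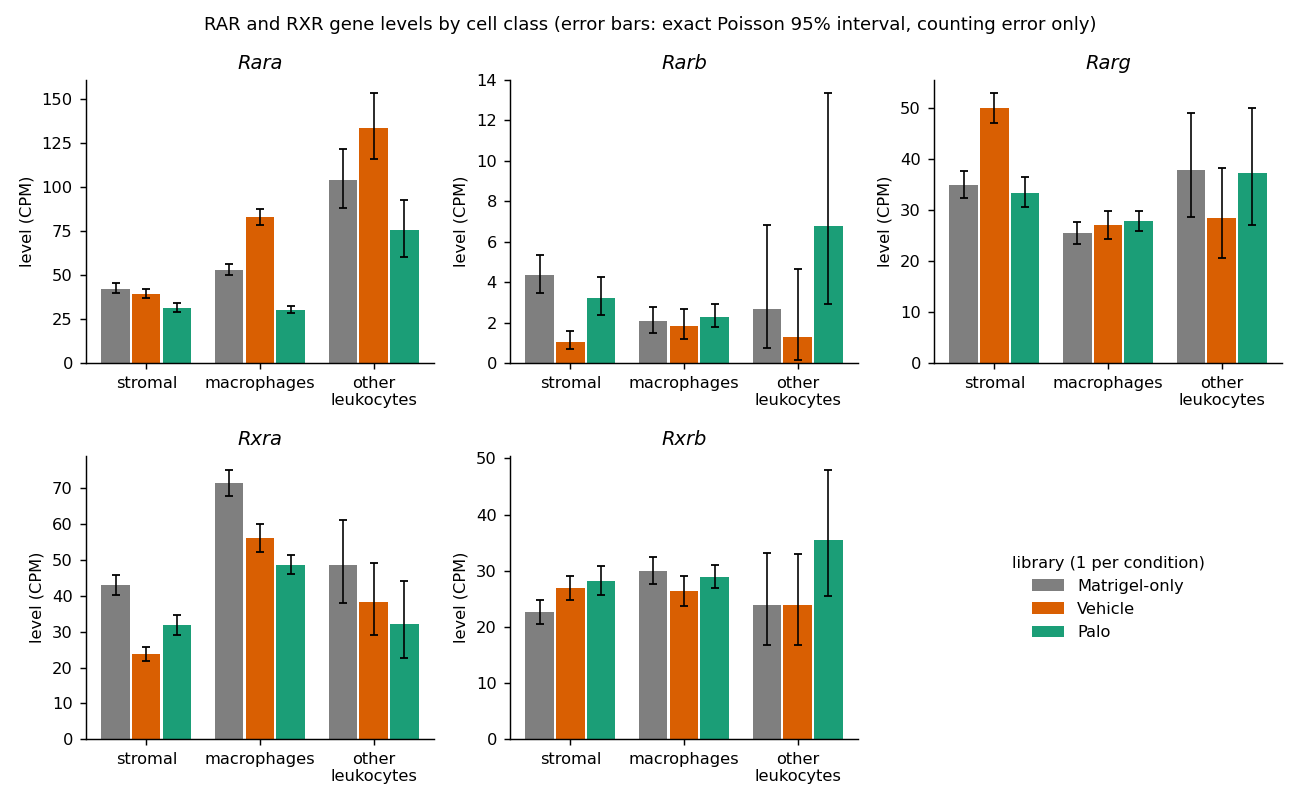
Level of 5 receptor genes (CPM, vertical axis from 0) in stromal cells, macrophages and other leukocytes of the 3 libraries, 1 bar per library, with error bars giving exact Poisson 95% intervals. *Rarg* is highest in Vehicle stromal cells (49.9 CPM), *Rarb* is lowest there (1.06 CPM), and *Rara* in macrophages runs from 82.8 CPM in Vehicle to 30.3 CPM in Palo. *Rxrg*, with at most 2 UMIs in any class, is left out.

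Stromal cells were then split by detection of *Pi16*, a marker of adventitial fibroblast progenitors, of *Sox9*, the master transcription factor of cartilage, and of *Acan*, which encodes the cartilage proteoglycan aggrecan. The make-up of the stroma differed between libraries. A *Pi16* UMI was found in 1153 stromal cells of Matrigel-only, 167 of Vehicle and 368 of Palo. *Sox9* without *Pi16* was found in 353, 1018 and 352 cells. *Acan* was detected in 779 stromal cells of Vehicle but in 1 cell of Matrigel-only and 4 of Palo. Detection depends on depth, and in Vehicle median UMIs were 14549 in *Pi16*+ cells, 17621 in *Pi16*- *Sox9*+ cells and 14192.5 in cells with neither. The medians of these subsets were 8419, 10768 and 9855 in Matrigel-only and 11021.5, 14221 and 13361 in Palo. The same rule may therefore pick different cells in each library.

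The higher *Rarg* level of Vehicle was clearest in *Pi16*- *Sox9*+ cells. The *Pi16*+ subset was not split by *Sox9*, and some of its cells also had a *Sox9* UMI. In *Pi16*- *Sox9*+ cells *Rarg* was at 28.5, 54.4 and 29.9 CPM in Matrigel-only, Vehicle and Palo. Vehicle was above Matrigel-only by 0.94 log2 units (0.66 to 1.22), and Palo below Vehicle by a log2 difference of -0.86 (-1.11 to -0.62). In *Pi16*+ cells the order was the opposite, with 39.6, 27.9 and 42.9 CPM in Matrigel-only, Vehicle and Palo. There Vehicle was below Matrigel-only, with a log2 difference of -0.51 (-0.90 to -0.13), and Palo was above Vehicle by 0.62 (0.21 to 1.05). Cells with neither gene lay between, at 31.9, 39.4 and 30.1 CPM, and their Vehicle over Matrigel-only interval spanned no difference (0.30, -0.05 to 0.66). Within Matrigel-only and Palo, *Pi16*+ cells therefore held more *Rarg* than *Pi16*- cells, by 0.38 and 0.51 log2 units, and within Vehicle they held less, with a log2 difference of -0.91.

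The *Acan*+ cells of Vehicle had a *Rarg* level of 56.1 CPM (52.2 to 60.2), against 41.1 CPM in the *Acan*- stromal cells of the same library, a difference of 0.45 log2 units (0.27 to 0.63). Of the 1094 *Sox9*+ stromal cells of Vehicle, 391 had no *Acan* UMI, so *Sox9*+ and *Acan*+ cells were largely the same cells. In *Sox9*+ *Acan*- cells of Vehicle *Rarg* was at 43.7 CPM, and *Acan*+ cells exceeded these by 0.36 log2 units (0.17 to 0.55). Of the RAR UMIs of *Acan*+ cells, 62.3% were *Rarg*. When only *Acan*- stromal cells were compared, Vehicle was above Matrigel-only by 0.23 log2 units and Palo below Vehicle by a log2 difference of -0.30, each smaller than over all stromal cells. The share of *Acan*+ cells moved with the *Rarg* difference. Its part in it cannot be told apart from that of BMP2 or palovarotene on a given cell, since only Vehicle held such cells in number.

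**Figure D2:**
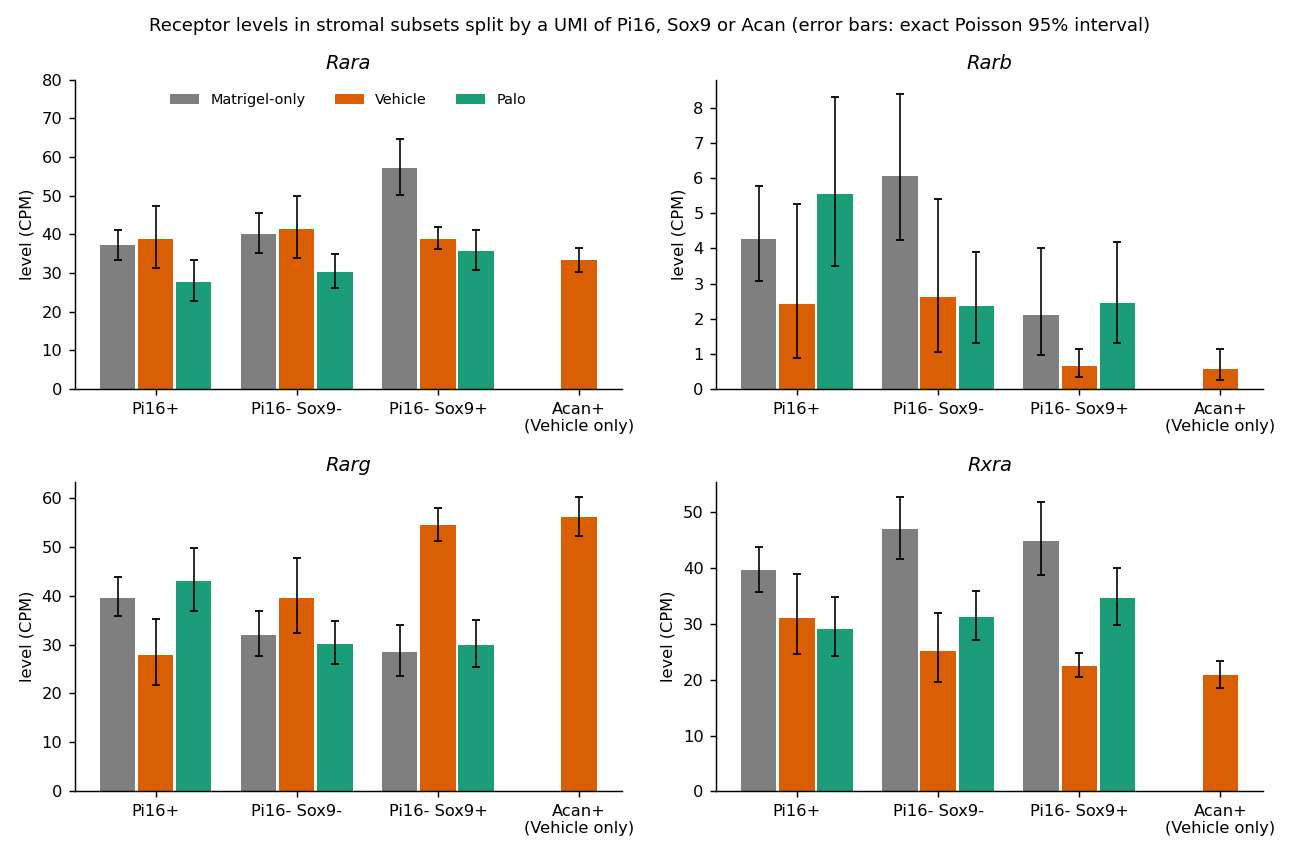
Level of 4 receptor genes (CPM, vertical axis from 0) in stromal cells with a *Pi16* UMI, with a *Sox9* but no *Pi16* UMI, with neither, and with an *Acan* UMI (shown for Vehicle, where there were 779 such cells), with exact Poisson 95% intervals as error bars. *Rarg* in Vehicle is at 27.9 CPM in *Pi16*+ cells and 54.4 CPM in *Pi16*- *Sox9*+ cells, while *Rarb* in Vehicle is lowest in the *Sox9*+ and *Acan*+ cells. The *Sox9*+ and *Acan*+ subsets share many cells.

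Macrophages also held *Rarg*, at similar CPM in the 3 libraries: 25.4, 27.0 and 27.8 CPM in Matrigel-only, Vehicle and Palo. The intervals of all 3 ratios of CPM spanned no difference. Factors of scaling by trimmed mean of M values (TMM) were 0.973, 0.987 and 0.860 for these macrophages. Such scaling raises *Rarg* of Palo against the other libraries, so the likeness holds for CPM only. *Pdgfra*, a stromal gene, was at 1.28 to 2.06 CPM in macrophages against 89.2 to 246 CPM in stromal cells, a much wider gap than that of *Rarg*. Macrophages without a UMI of the maturation marker *Ms4a7* had more *Rarg* than those with one, 33.9 against 18.5 CPM in Matrigel-only, 35.9 against 21.0 in Vehicle and 39.3 against 16.1 in Palo. In CPM, stromal cells exceeded macrophages by 0.46, 0.89 and 0.27 log2 units in the 3 libraries. The stromal TMM factors were 1.01, 1.03 and 1.01, so TMM scaling narrows this gap, most in Palo, where it was smallest. After thinning to 1000 UMIs, 3.68%, 4.86% and 3.45% of stromal cells and 2.56%, 2.73% and 2.59% of macrophages had a *Rarg* UMI. Other leukocytes had *Rarg* levels of 37.9, 28.4 and 37.2 CPM, from 57, 44 and 44 UMIs, and their intervals overlapped those of stromal cells in Matrigel-only and Palo.

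*Rarb*, the retinoid-responsive member, was the scarcest of the 3 RAR genes and was lowest in Vehicle stroma, the library where *Rarg* was highest. Its stromal level was 4.34 CPM (3.48 to 5.35) in Matrigel-only, 1.06 CPM (0.686 to 1.56) in Vehicle and 3.22 CPM (2.40 to 4.24) in Palo. These levels rested on 87, 25 and 51 UMIs, found in 81, 24 and 48 cells. Vehicle was thus the low library and the other two had overlapping intervals. Vehicle was 4.10-fold below Matrigel-only (2.60 to 6.67) and Palo was 3.04-fold above Vehicle (1.85 to 5.12), and the log2 difference of Palo from Matrigel-only was -0.43 (-0.96 to 0.09). After thinning to 3000 UMIs, 1.24%, 0.346% and 1.002% of stromal cells had a *Rarb* UMI. *Rarb* was under the 5 CPM needed to enter the count of genes past 2-fold in stromal cells.

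The *Rarb* level of Vehicle was below that of Matrigel-only in both *Sox9*+ and *Sox9*- stromal cells, though the intervals overlapped in each. Within each library *Sox9*+ stromal cells had less *Rarb* than *Sox9*- cells, 1.89 against 5.34 CPM in Matrigel-only, 0.606 against 3.42 in Vehicle and 2.43 against 3.73 in Palo. The *Sox9*+ levels rested on 11, 12 and 15 UMIs, and the Palo interval spanned no difference (log2 difference -0.62, -1.60 to 0.29). *Pi16*+ cells had 4.26, 2.42 and 5.54 CPM in Matrigel-only, Vehicle and Palo, and *Pi16*- *Sox9*+ cells 2.12, 0.650 and 2.45 CPM. Both subsets therefore had their lowest value in Vehicle, from 6 UMIs in *Pi16*+ cells and 12 UMIs in *Pi16*- *Sox9*+ cells. The Vehicle interval in *Pi16*+ cells (0.889 to 5.27 CPM) overlapped those of Matrigel-only and Palo. In *Pi16*- *Sox9*+ cells it overlapped that of Matrigel-only. In cells with neither gene the levels were 6.05, 2.63 and 2.36 CPM, so that Palo was not above Vehicle there (log2 difference -0.16, from 15 and 7 UMIs). *Acan*+ cells of Vehicle, largely the same cells as the *Sox9*+ ones, had 0.575 CPM. Over *Acan*- cells alone Vehicle differed from Matrigel-only by a log2 difference of -1.30 and Palo from Vehicle by 0.85.

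In macrophages *Rarb* was at 2.06, 1.81 and 2.30 CPM, from 42, 26 and 63 UMIs. Most of it was in macrophages without an *Ms4a7* UMI, at 4.27, 3.31 and 4.05 CPM, against 0.267, 0.813 and 0.514 CPM in those with one. Other leukocytes had 4, 2 and 8 *Rarb* UMIs (2.66, 1.29 and 6.77 CPM).

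*Rara*, the broadly expressed RAR gene with known roles in myeloid cells, showed the largest difference of the 4 more abundant genes, and it lay in macrophages. Its level in macrophages was 53.0 CPM (49.9 to 56.2) in Matrigel-only, 82.8 CPM (78.2 to 87.7) in Vehicle and 30.3 CPM (28.3 to 32.4) in Palo, from 1079, 1189 and 831 UMIs. None of these intervals overlapped, with Vehicle the highest and Palo the lowest. Vehicle was 1.56-fold above Matrigel-only (log2 difference 0.64, 0.52 to 0.77). Palo was 2.74-fold below Vehicle (2.50 to 2.99, log2 difference -1.45) and also below Matrigel-only, with a log2 difference of -0.81 (-0.94 to -0.68). The median gene of Palo macrophages was itself shifted against Vehicle, by -0.17 log2 units, and TMM scaling gave -1.25 for *Rara* in place of -1.45.

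Of the 4 receptor genes tested in macrophages between Palo and Vehicle, 1 was past 2-fold, *Rara*, against 6.98% of the 9819 genes tested (1.8% higher and 5.17% lower). A larger difference than that of *Rara* was found in 3.42% of these genes. None of the 4 was past 2-fold between Vehicle and Matrigel-only, where 6.77% of all genes tested were (4.17% higher and 2.6% lower), or between Palo and Matrigel-only, where 2.52% were (0.866% higher and 1.66% lower). Both ratios with Vehicle share its library, so a high *Rara* count there enters each.

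The lower *Rara* of Palo macrophages was found in both macrophage subsets. Macrophages with an *Ms4a7* UMI had 45.7, 70.0 and 26.0 CPM in Matrigel-only, Vehicle and Palo. Those without had 61.9, 102 and 34.5 CPM. Vehicle was the highest and Palo the lowest in each subset. The summed T and NK cell markers were at 20.8, 99.96 and 17.5 CPM in macrophages of Matrigel-only, Vehicle and Palo and granulocyte markers at 38.4, 107 and 33.5 CPM, so both were highest in the Vehicle class. In macrophages with both a *Csf1r* and a *C1qa* UMI, Palo was still below Vehicle, with a log2 difference of -1.34. After thinning to 1000 UMIs, 4.87%, 8.46% and 2.96% of macrophages had a *Rara* UMI.

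Other leukocytes had the highest *Rara* levels of the 3 classes, at 104, 134 and 75.3 CPM in Matrigel-only, Vehicle and Palo, from 156, 207 and 89 UMIs. The order of the libraries was that seen in macrophages. The log2 difference was -0.83 (-1.20 to -0.46) for Palo over Vehicle and 0.37 (0.06 to 0.68) for Vehicle over Matrigel-only, the latter falling to 0.15 with TMM. TMM factors were 1.01, 1.17 and 0.975 in Matrigel-only, Vehicle and Palo, so this scaling also narrows the Palo over Vehicle difference. The median gene of Palo over Vehicle was at -0.25 log2 units. Other leukocytes with a T or NK cell marker had 120, 90.7 and 71.0 CPM, and those without 102, 162 and 75.8 CPM. The levels with a marker rested on 13, 56 and 9 UMIs, and their intervals overlapped, so no order of the libraries is read from them. The cell mixture of this class differed between libraries, as given above, and its part in the *Rara* levels was not tested.

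In stromal cells *Rara* differed less, at 42.3, 39.2 and 31.5 CPM in Matrigel-only, Vehicle and Palo (848, 924 and 498 UMIs). The interval of Vehicle over Matrigel-only spanned no difference (log2 difference -0.11, -0.25 to 0.03), and Palo was below both, with log2 differences of -0.32 (-0.48 to -0.16) and -0.43 (-0.59 to -0.27). Palo was therefore the lowest library for *Rara* in all 3 classes. Leaving out stromal cells with a *Csf1r* or *C1qa* UMI, its stromal log2 difference from Vehicle was -0.21. In Matrigel-only, *Sox9*+ stromal cells had more *Rara* than *Sox9*- cells, 59.6 against 35.3 CPM. In Vehicle the *Acan*+ cells had 33.3 CPM and the *Acan*- cells 47.6, the opposite of their order for *Rarg*. Over *Acan*- stromal cells alone, *Rara* was at 42.3, 47.6 and 31.6 CPM in Matrigel-only, Vehicle and Palo. There Vehicle was the highest, with an interval that overlapped that of Matrigel-only, and Palo lay further below Vehicle than over all stromal cells.

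**Figure D3:**
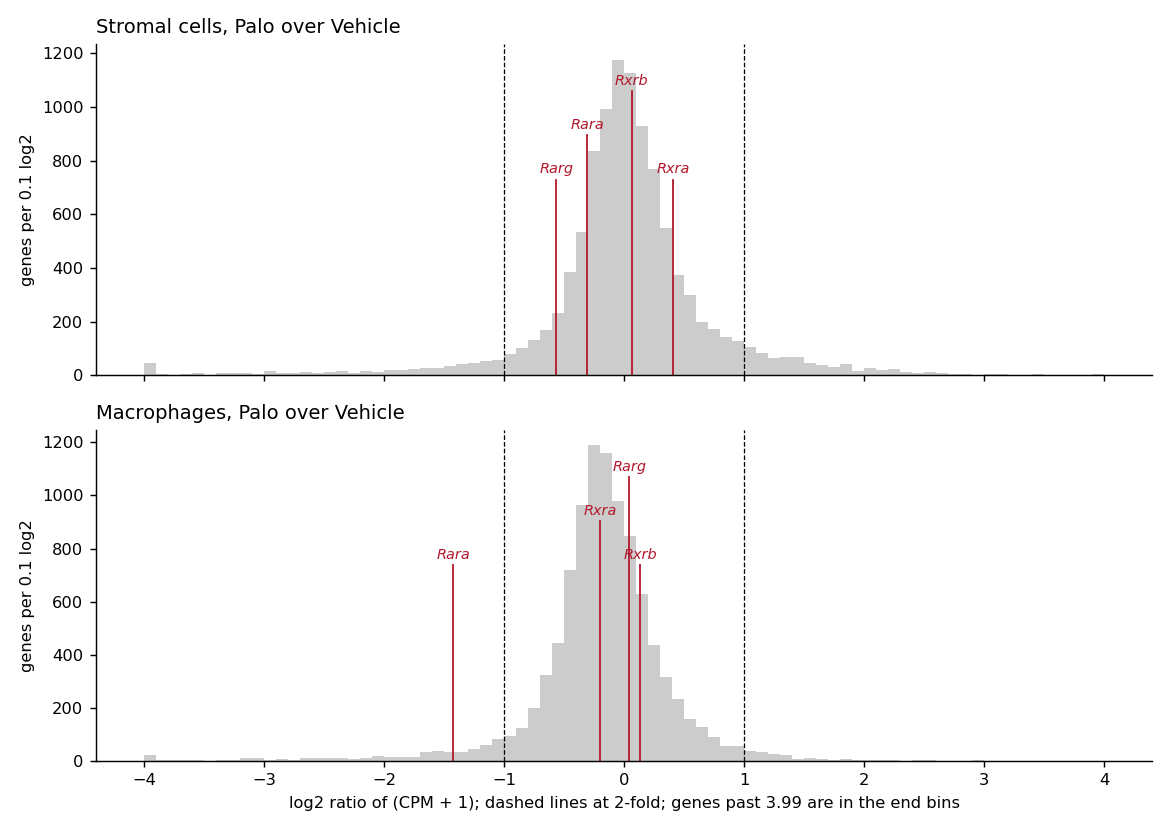
Histograms of the log2 ratio of (CPM + 1) of Palo over Vehicle for all genes with at least 5 CPM in either library, in stromal cells (top) and macrophages (bottom), with red lines at the 4 receptor genes tested and dashed lines at 2-fold. *Rara* in macrophages lies past the 2-fold line among 6.98% of genes, while the 4 receptor genes in stromal cells lie inside it.

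The make-up of RAR transcripts followed from these levels. The 3′ UMI counts are not scaled by transcript length, since each captured molecule gives 1 UMI, and capture may differ between genes. In stromal cells *Rarg* made up 42.8% (40.4 to 45.3) of RAR UMIs in Matrigel-only, 55.4% (53.2 to 57.5) in Vehicle and 49.1% (46.0 to 52.1) in Palo, and *Rara* 51.8%, 43.4% and 46.2%. Thus Vehicle was the only library whose *Rarg* share lay above its *Rara* share beyond counting error. In macrophages *Rara* led in Matrigel-only (65.9%) and Vehicle (74.2%), whereas in Palo *Rara* (50.2%) and *Rarg* (46.0%) were close. The summed RAR level in macrophages was 80.4 CPM, 112 CPM and 60.4 CPM in Matrigel-only, Vehicle and Palo, and in stromal cells 81.6, 90.2 and 68.1 CPM.

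**Figure D4:**
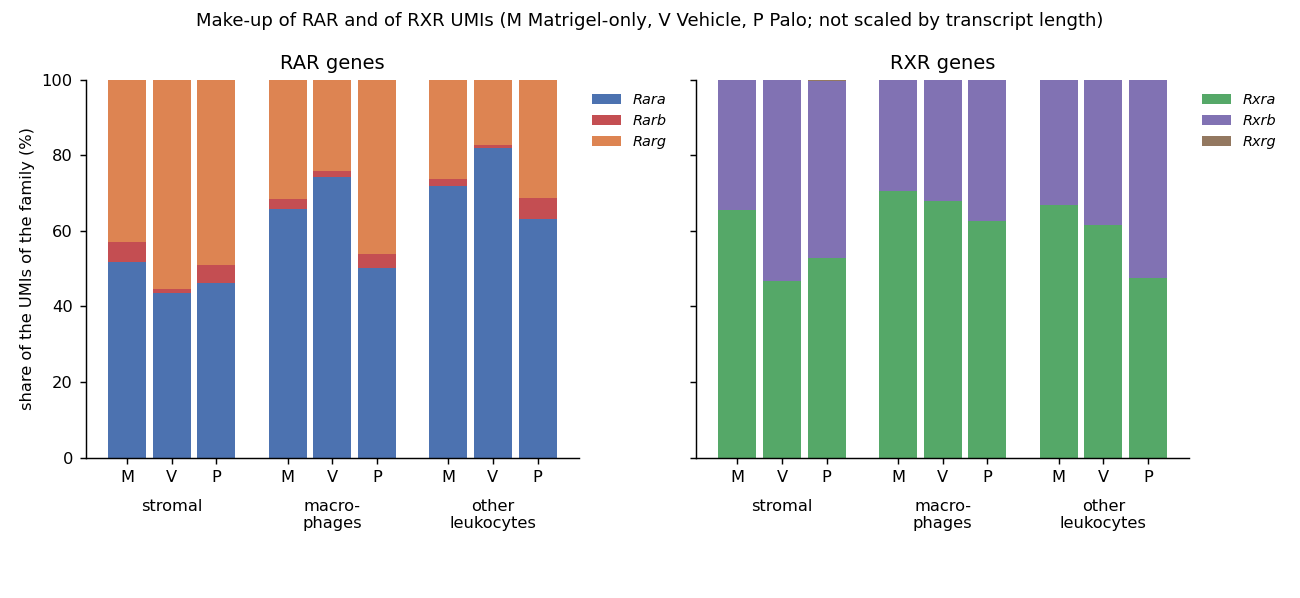
Share of each gene among the UMIs of the RAR genes (left) and of the RXR genes (right), in percent, for stromal cells, macrophages and other leukocytes of Matrigel-only (M), Vehicle (V) and Palo (P). *Rarg* is 55.4% of RAR UMIs in Vehicle stromal cells, and in macrophages its share is 31.6%, 24.2% and 46.0%.

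*Rxra*, the main RXR gene of many tissues, was lowest in Vehicle stroma. Its stromal level was 42.9 CPM (40.1 to 45.9) in Matrigel-only, 23.7 CPM (21.8 to 25.8) in Vehicle and 31.8 CPM (29.1 to 34.7) in Palo, from 860, 560 and 504 UMIs. The 3 intervals did not overlap. Vehicle was below Matrigel-only by a log2 difference of -0.85 (-1.01 to -0.70), Palo above Vehicle by 0.42 (0.25 to 0.60) and Palo below Matrigel-only by -0.43 (-0.59 to -0.27). In CPM, Vehicle was below Matrigel-only in each subset, and Palo lay between them except in *Pi16*+ cells. The *Pi16*+ levels rested on 390, 77 and 121 UMIs in Matrigel-only, Vehicle and Palo, and their order was read without an interval. The levels were 39.6, 31.1 and 29.2 CPM in *Pi16*+ cells of Matrigel-only, Vehicle and Palo, 44.9, 22.5 and 34.6 CPM in *Pi16*- *Sox9*+ cells and 46.9, 25.2 and 31.2 CPM in cells with neither. *Acan*+ cells had 20.8 CPM and *Acan*- cells 27.9 CPM in Vehicle. Over *Acan*- cells alone the log2 difference of Palo from Vehicle was 0.19, and its interval spanned no difference.

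In macrophages *Rxra* had another order, with Palo lowest: 71.3 CPM (67.7 to 75.1) in Matrigel-only, 56.0 CPM (52.2 to 60.0) in Vehicle and 48.6 CPM (46.0 to 51.3) in Palo. The log2 difference of Palo from Matrigel-only was -0.55 (-0.66 to -0.45) and that of Palo from Vehicle was -0.20 (-0.33 to -0.08), a little past the -0.17 of the median gene. With TMM scaling these were -0.37 and -0.0047, so Palo and Vehicle macrophages could not be told apart for *Rxra* once the shift of the median was taken out. Other leukocytes had 48.5, 38.1 and 32.1 CPM.

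*Rxrb*, the ubiquitous RXR gene, had a narrow range in stromal cells and macrophages. It was at 22.6, 26.9 and 28.2 CPM in Matrigel-only, Vehicle and Palo in stromal cells, and at 30.0, 26.3 and 28.9 CPM in macrophages. In other leukocytes it was at 23.9, 23.9 and 35.5 CPM. In stroma Vehicle was above Matrigel-only by 0.25 log2 units (0.08 to 0.43), and the Palo over Vehicle interval spanned no difference (0.066, -0.11 to 0.24). The intervals of all 3 ratios of CPM in macrophages spanned no difference, while TMM scaling raises Palo there against the other libraries. In *Pi16*+ cells the levels were 21.6, 18.6 and 31.6 CPM, with Palo above Vehicle by 0.77 log2 units (0.27 to 1.28). As *Rxra* was low in Vehicle stroma, *Rxrb* made up 53.1% of RXR UMIs there, against 34.5% in Matrigel-only and 46.8% in Palo.

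*Rxrg*, which is known for restricted expression in muscle and parts of the nervous system, was near the limit of detection. Matrigel-only had 0 UMIs of it in all passing cells, and Vehicle and Palo had 3 each. The count of 0 in stromal cells allows up to 0.150 CPM and that in macrophages up to 0.147 CPM, taking 3 counts as the limit. No order of the libraries could be read from it.

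None of the 4 receptor genes tested in stromal cells was past 2-fold between any pair of libraries. Over all genes tested, 15.0% were past 2-fold between Vehicle and Matrigel-only (5.03% higher and 10.0% lower), 11.9% between Palo and Vehicle (6.69% and 5.26%) and 2.73% between Palo and Matrigel-only (0.65% and 2.08%). In other leukocytes none of 4 was past 2-fold between Vehicle and Matrigel-only, against 17.0% of all genes (12.1% higher and 4.83% lower). Of 5 tested there, 1 was higher both for Palo over Vehicle, where 18.2% of all genes were past 2-fold (4.41% higher and 13.8% lower), and for Palo over Matrigel-only, where 7.26% were (3.16% higher and 4.11% lower). That gene was *Rarb*, which entered the count only through its 8 UMIs in Palo.

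Ordered by stromal level, *Rxra* and *Rara* led in Matrigel-only with overlapping intervals, followed by *Rarg*, *Rxrb* and *Rarb*. In Vehicle the order was *Rarg*, *Rara*, then *Rxrb* and *Rxra* with overlapping intervals, then *Rarb*. In Palo *Rarg*, *Rxra*, *Rara* and *Rxrb* followed each other with overlapping intervals between neighbours, and *Rarb* was again last of the 5 detected genes.

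Since the receptors act as pairs, the share of stromal cells with a UMI of both an RAR and an RXR gene was computed. After thinning to 3000 UMIs it was 3.91% (3.08 to 4.88) in Matrigel-only, 3.24% (2.35 to 4.35) in Vehicle and 3.28% (2.32 to 4.49) in Palo, and these intervals overlapped. The unthinned shares were 23.8%, 41.7% and 32.4%, in the order of the depth of the cells. These were slightly above the 21.2%, 38.4% and 30.0% that the separate unthinned shares would give if they were independent. Unequal depth of cells raises joint detection by itself, so this gap is not read as joint expression. At 3000 UMIs the separate shares were 21.7%, 23.5% and 19.1% for RAR genes and 17.8%, 14.3% and 16.6% for RXR genes. At this depth most cells had no UMI of one family or the other, which does not show that the proteins were absent.

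Coregulator genes of nuclear receptors were then examined. All 7 coactivator genes (*Ncoa1*, *Ncoa2*, *Ncoa3*, *Ep300*, *Crebbp*, *Med1*, *Kat2b*) and all 5 corepressor genes (*Ncor1*, *Hdac3*, *Tbl1xr1*, *Tbl1x*, *Nrip1*) were tested, and none was past 2-fold between any pair of libraries in stromal cells or in macrophages. Of all genes tested, 15.0% (Vehicle over Matrigel-only), 11.9% (Palo over Vehicle) and 2.73% (Palo over Matrigel-only) were past 2-fold in stroma. In macrophages 6.77%, 6.98% and 2.52% were, so lists this short may hold none without being particular. The largest stromal difference among the coregulators was that of *Ncoa1*, a nuclear receptor coactivator gene, at 33.0, 17.1 and 26.5 CPM in Matrigel-only, Vehicle and Palo (log2 difference of Vehicle from Matrigel-only -0.95). *Kat2b* and *Ncoa2* were also lower in Vehicle than in Matrigel-only, by -0.64 and -0.52. The median log2 differences in stroma of Vehicle over Matrigel-only, Palo over Vehicle and Palo over Matrigel-only were -0.23, 0.12 and -0.11 for coactivators and -0.064, -0.062 and -0.13 for corepressors. The medians of all genes tested in these contrasts were -0.04, 0.01 and -0.04.

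Of 11 listed RXR partner receptors and related nuclear receptors, 9 were tested in stromal cells between Vehicle and Matrigel-only, where 2 were past 2-fold higher and 1 lower, against 5.03% and 10.0% of all genes. *Vdr*, the vitamin D receptor gene, was at 2.84, 23.7 and 3.66 CPM in Matrigel-only, Vehicle and Palo, so it was high in Vehicle stroma alone. *Nr4a1*, an immediate early gene of an orphan receptor, was at 21.8, 7.29 and 29.4 CPM, low in Vehicle alone. *Nr1d1*, which was on the list although its product, a circadian repressor, is known to act without RXR, was at 9.63, 26.8 and 39.4 CPM. Without it, 1 of 8 was higher in Vehicle. *Nr1h3*, the oxysterol receptor gene, was at 6.63, 2.84 and 2.21 CPM, so it was low in both Vehicle and Palo. Between Palo and Vehicle, 1 of 8 was higher (*Nr4a1*) and 1 lower (*Vdr*), against 6.69% and 5.26% of all genes. *Thra*, the thyroid hormone receptor gene, had the highest stromal level of the list, at 182, 108 and 137 CPM. With *Nr1d1* included, the median log2 differences of the tested members were -0.12 for Vehicle over Matrigel-only and 0.34 for Palo over Vehicle, against -0.04 and 0.01 over all genes tested.

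In macrophages the same contrast of Palo over Vehicle had 3 of 9 listed receptors past 2-fold higher and 2 lower, against 1.8% and 5.17% of all genes. *Vdr* was at 9.33, 25.1 and 8.45 CPM in Matrigel-only, Vehicle and Palo, and *Nr1h3* at 9.67, 27.3 and 10.4 CPM. Vehicle was the high library for both, as it was for *Rara*. *Pparg*, an adipogenic and anti-inflammatory receptor gene, was lowest in Vehicle at 7.80 CPM, against 15.1 and 19.4, and *Nr4a1* was at 79.2, 33.0 and 80.2 CPM. *Nr1d1* was at 10.3, 7.59 and 20.2 CPM, and without it 2 of 8 were higher in Palo than in Vehicle. Between Vehicle and Matrigel-only 2 of the 9 were higher and 1 lower, against 4.17% and 2.6% of all genes. None of the 9 was past 2-fold between Palo and Matrigel-only, where 2.52% of all genes were.

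Among 14 genes of retinoid handling or response, 11 were tested in stroma between Palo and Vehicle, with 2 past 2-fold higher and 3 lower, against 6.69% and 5.26% of all genes. Their median log2 difference was -0.14, against 0.01 over all genes. *Crabp1*, which encodes a retinoic acid-binding protein, was at 16.6, 0.212 and 16.2 CPM and *Aldh1a1*, which encodes a retinoic acid-synthesizing enzyme, at 39.3, 3.48 and 24.9 CPM, both lowest in Vehicle like *Rarb*. *Fabp5*, whose protein binds fatty acids and retinoic acid, was at 146, 892 and 286 CPM and *Cyp26b1*, encoding a retinoic acid-degrading enzyme, at 46.5, 94.0 and 38.5 CPM, both highest in Vehicle like *Rarg*. *Cyp26a1*, whose promoter stretch is printed above, had 14, 20 and 34 stromal UMIs (0.698, 0.848 and 2.15 CPM), too few to enter the count. In macrophages 1 of 6 tested was higher in Palo than in Vehicle and 3 were lower, against 1.8% and 5.17% of all genes. The higher one was *Aldh1a2*, which encodes a retinoic acid-synthesizing enzyme, at 20.2, 4.18 and 17.1 CPM. The lower ones were *Tgm2*, a retinoid-responsive transglutaminase gene, at 6.83, 119 and 12.8 CPM, *Fabp5* at 252, 1573 and 317 CPM and *Cyp26b1* at 1.42, 6.55 and 0.765 CPM.

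**Figure D5:**
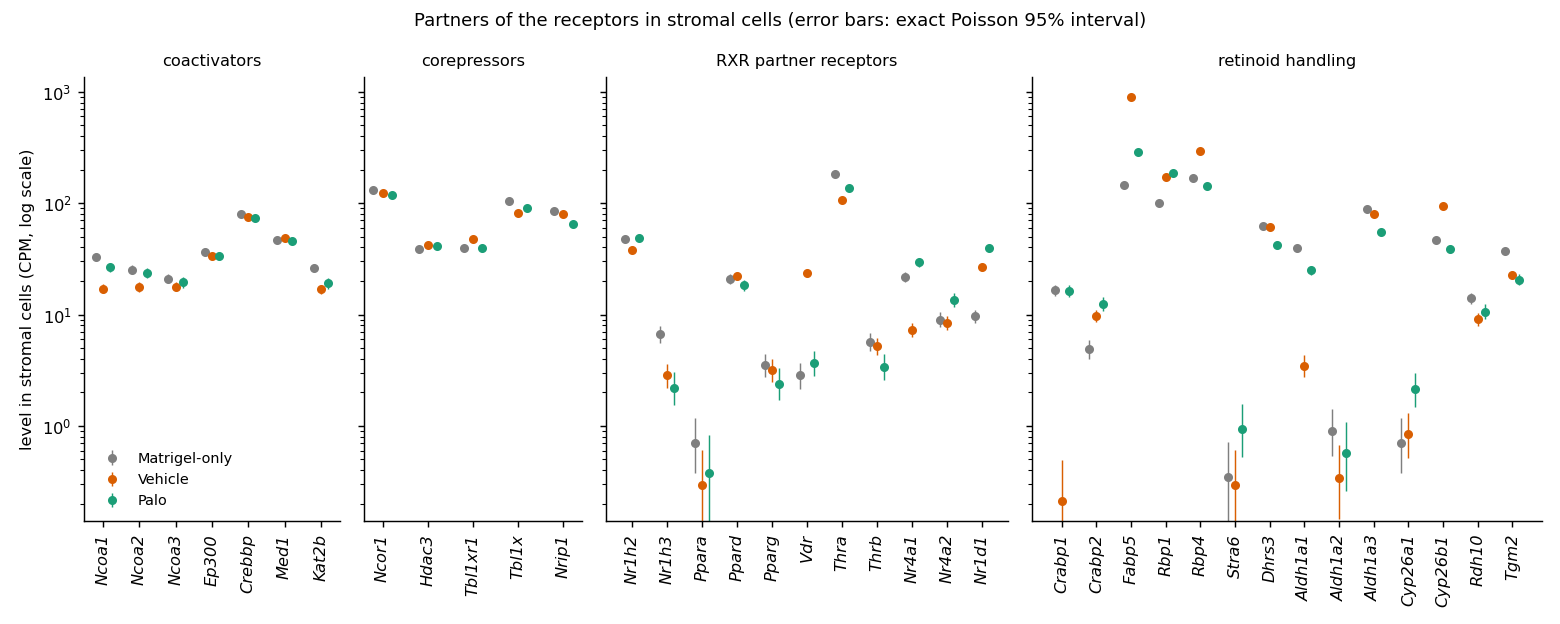
Stromal level (CPM, logarithmic vertical axis) of 7 coactivator, 5 corepressor, 11 RXR partner or related receptor and 14 retinoid handling genes in the 3 libraries, with exact Poisson 95% intervals as error bars. The coregulators differ by less than 2-fold between libraries, the widest being *Ncoa1* (33.0 CPM in Matrigel-only and 17.1 CPM in Vehicle), while *Vdr* (23.7 CPM) and *Fabp5* (892 CPM) are high and *Crabp1* (0.212 CPM) and *Nr4a1* (7.29 CPM) low in Vehicle. At most 15.0% of all genes tested in stromal cells are past 2-fold between any pair of libraries.

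Finally, the genes whose levels were most like those of each receptor were listed over the 9 sums of 3 libraries by 3 classes, among 8924 genes. By Pearson correlation of log2(CPM + 1), *Rara* was nearest *Usp7* (0.99), *Kdm6b* (0.98) and *Cish* (0.97), and *Rarg* nearest *Erf* (0.96) and *Slc27a3* (0.93). *Rxra* was nearest *Mfsd5*, *Fam43a* and *Plekhg3* (each 0.98), and *Rxrb* nearest CAAA01118383.1 (0.87), *Insig1* (0.86) and *Ptrhd1* (0.85). Over the 9 stromal sums, *Rarg* was nearest *Igdcc4* (0.89), *Aak1* (0.88) and *Luc7l2* (0.86). The 9 sums share libraries and their depths, so these values are descriptive. *Rarb* was too low to be included.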

How the data were processed

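The deposited files hold raw UMI counts per gene and cell barcode, 1 matrix per library. The authors made them from 10x Genomics libraries, and the submitters' processing notes name Cell Ranger 3.0.2, Seurat 3 and mm10. The annotation and strand setting were not given in the sources used here. Cells with 200 to 6000 genes and at most 5% mitochondrial UMIs were kept. The upper limit was the treatment of doublets, and no doublet caller was run. Between 23.0% and 27.8% of stromal cells held a *Csf1r* or *C1qa* UMI, and leaving them out was an alternative. The classes followed a fixed order, stromal first. Between 18 and 151 passing cells per library had a stromal share near the 1% limit.

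Counts were summed per library and class and divided by all UMIs of the class (CPM). Levels were given exact Poisson, shares exact binomial and ratios conditional binomial intervals at 95%. Shares were computed at 3000 or 1000 UMIs per cell by the hypergeometric formula, leaving out shallower cells. The background was the genes with at least 5 CPM in either library, called past 2-fold on log2(CPM + 1). TMM factors came from edgeR 4.0.16 in R 4.3.3 and the rest from Python 3.11.15, numpy 2.4.6, scipy 1.17.1 and pandas 2.3.3. The procedure was tested on simulated data. Listed genes past 2-fold were named, at most 4 per list and contrast by size, with other values given for context. A listed gene and a gene ranked by likeness are not reported here. The genes, lists and subsets were chosen with earlier results of these data known.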

Additional observations from a re-analysis of the deposited data

Results flagged for a closer look

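The *Rxra* difference of Palo from Vehicle had opposite signs in stromal cells and macrophages, 0.42 log2 units in the former and -0.20 in the latter. The macrophage value was -0.0047 with TMM scaling, and the difference was not tested, since each condition had 1 library.

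The *Rarg* difference of Vehicle from Matrigel-only was -0.51 log2 units in *Pi16*+ stromal cells and 0.94 in *Pi16*- *Sox9*+ stromal cells of the same libraries. For Palo over Vehicle it was 0.62 in *Pi16*+ cells, -0.86 in *Pi16*- *Sox9*+ cells and -0.39 in cells with neither gene. The subsets of a library are cells of 1 suspension, and these differences were not tested.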

How the results depend on the processing

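Of 315 recomputed log2 ratios between libraries, 278 stayed within the counting interval of the reported ratio and 35 moved outside it. Another 2 changed sign where the reported interval did not span no difference. Changes of sign of ratios whose interval spanned no difference were not counted as such. Of 225 ratios between classes, 210 stayed within the interval and 15 moved outside it. *Rara* in macrophages differed by 0.83 for Vehicle over Matrigel-only with the mean of per-cell CPM, and by -1.25 for Palo over Vehicle and -0.63 for Palo over Matrigel-only with TMM. In stromal cells without *Pi16* or *Sox9*, *Rarb* differed by -1.20 (Vehicle over Matrigel-only), -0.16 (Palo over Vehicle, a change of sign) and -1.36 (Palo over Matrigel-only), *Rarg* by 0.30 and -0.39 in the first 2 contrasts, and *Rxrb* by -0.070 in the first, also a change of sign. Without *Acan*+ cells the first 2 contrasts gave -1.30 and 0.85 for *Rarb*, 0.23 and -0.30 for *Rarg* and -0.62 and 0.19 for *Rxra*. A stromal limit of 5% gave 0.29 and -0.41 for *Rarg*. The cause was not tested. The share of stromal cells with *Rarg* was 26.2%, 51.2% and 33.2% without thinning and 0.715%, 1.15% and 0.703% for at least 2 UMIs, and that with both families was 23.8%, 41.7% and 32.4% without thinning. Genes past 1.5-fold numbered 3059, 2450 and 896 in stroma and 1634, 1818 and 994 in macrophages, against 1616, 1264, 286, 672, 685 and 245 past 2-fold. With 5 CPM added, 128 were past 2-fold for Palo over Matrigel-only in stroma, and 397, 413 and 113 in macrophages. The genes most like each receptor shared at most 1 name under Spearman correlation. The splits of macrophages by *Ms4a7* and by both *Csf1r* and *C1qa* were chosen after seeing the data.

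No paired analysis was possible because each group had 1 library, and for the same reason no library was left out. Differences between the animals, implants, dissociations and library depths of the conditions cannot be told apart from the treatments. *Rarb* and *Rxrg* are limited by their counts, and fewer than 100 stromal *Rarb* UMIs stand behind each of its levels.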
